A study of Mus musculus with 24 samples.

Results

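Livers of mice that had lost caveolin-1 in hepatocytes were compared with livers of their wild-type littermates after 4 weeks on a methionine/choline-deficient (MCD) diet, with males and females in one model that had sex as a term. All 12 MCD arrays of the 24 in the series were used, 6 from knockout and 6 from wild-type livers, with 3 males and 3 females in each genotype. HepCAV1ko mice carried floxed Cav1 alleles and 1 copy of Alb-Cre, a recombinase under the albumin promoter, which is active in hepatocytes. HepCAV1wt mice carried the floxed alleles without Cre. All mice received regular chow until 8 weeks of age, then the MCD diet, and whole liver was taken at 12 weeks. The floxed locus was therefore shared by both groups, Cre was carried by the knockouts alone, and endothelial, stellate and immune cells of the knockout livers kept an intact Cav1. The labels number the replicates of each group from 1 to 3 without saying that each came from a separate mouse, so the p-values measure the spread between these samples.

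Caveolin-1 is the structural protein of caveolae, small flask-shaped pits of the plasma membrane that it forms with the cavins, and it also coats lipid droplets. The MCD diet blocks the synthesis of phosphatidylcholine that the liver needs to export lipoproteins, so fat collects in hepatocytes and inflammation and scarring follow. Many liver genes are set by sex through the rhythm of growth hormone release, which makes the sex term of the model a large one in this tissue.

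The arrays measured 24704 named genes as log2 RMA signal, a background-corrected and quantile-normalized brightness on a log2 scale, where a difference of 1 is a doubling. The correlation between 2 arrays of one group lay between 0.981 and 0.991. That between genotypes within a sex lay between 0.984 and 0.991, and that between sexes between 0.979 and 0.989. These are correlations of normalized values and do not show equal quality. Array weights by limma, lower for arrays that deviate more from the fit, were 0.567 in HepCAV1wt male 3 and 0.601 in HepCAV1wt male 1. The highest weight was 1.4, in HepCAV1ko female 1. The first principal component, with 19% of the variance, separated the sexes, and Xist and Eif2s3y matched the labelled sex on 24 of 24 arrays. The means of 10 hepatocyte markers lay between 12.19 and 12.31 on every MCD array, as the labelled tissue would have.

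Cav1 itself was hardly lower in the knockout livers on this diet. Its signal was 4.25, 4.00 and 4.41 in HepCAV1wt males and 3.96, 4.21 and 4.36 in HepCAV1ko males. In females it was 4.28, 3.95 and 4.39 in HepCAV1wt and 4.11, 3.95 and 4.31 in HepCAV1ko. The genotypes overlapped in both sexes, and the difference of -0.07 ± 0.11 (log2, SE, n = 6 per genotype) gave p = 0.545 in an exact permutation test within the sexes (two-sided, 400 arrangements, smallest possible p 0.005). The 12 signals were near the median of 3.83 over all genes, whole liver holds cells that keep Cav1, and the sources used here do not say whether the probes lie in the deleted part. On the control diet the same contrast was -0.55 ± 0.17, and the difference between the diets of 0.49 ± 0.24 had an adjusted p of 1.00 (limma). The label of genotype is thus not borne out by this gene on the MCD arrays, and "knockout" below stands for the library labelled so. The study has other evidence for the genotype. It typed the mice by PCR, and reports lower Cav1 mRNA in isolated hepatocytes and lower protein in cultured ones. It attributes the weaker difference in whole liver to Cav1 in non-parenchymal cells. Among the 11 genes of the caveolae list, 0 had an unadjusted p under 0.05, and the median difference was -0.00. Cavin2, a coat protein of caveolae, had the smallest p of the list, 0.0899 by limma, at 0.23 ± 0.13.

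No gene differed between the genotypes beyond the spread between arrays once p-values were adjusted over all genes. In the comparison of both sexes, 0 of 24704 genes (0%) had an adjusted p under 0.05 by limma with Benjamini-Hochberg adjustment, and the smallest adjusted p was 1. At an unadjusted p under 0.05 there were 795 genes, 3.22% of those tested, where chance alone gives 5%. Of these, 393 (1.59%) were higher and 402 (1.63%) lower in the knockouts. The precision was high enough to bound the effect: the median SE was 0.11 log2, and for 99.2% of genes the 95% interval of the difference lay within 1 log2 unit of 0, that is, within a doubling either way. Only 4 genes (0.0162%) had a mean difference of 1 or more, named here after their values were seen: Slco1a1 (-1.94), Serpina1d (1.17), Dmbt1 (1.11) and Gm6614 (-1.05). Each rested on a few arrays. Serpina1d, which encodes an alpha-1-antitrypsin, read 5.40 in HepCAV1wt male 1 and 11.81 to 12.29 on the other 11 arrays. Dmbt1, a secreted scavenger glycoprotein of epithelia, read 7.88 in HepCAV1ko male 2 and 5.17 in HepCAV1ko male 1, against 2.04 to 4.58 elsewhere. The study also names Dmbt1, Slco1a1 and Gm6614 from these arrays.

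The smallest p over both sexes belonged to Slc35g1, a membrane protein of the solute carrier family 35 that binds the calcium sensor STIM1 in human cells. Its signal was 8.18, 8.20 and 8.10 in HepCAV1wt males against 7.70, 7.51 and 7.82 in HepCAV1ko males. In females the values were 8.44, 8.42 and 8.45 in HepCAV1wt and 7.95, 8.24 and 7.71 in HepCAV1ko. The genotypes did not overlap within either sex, as was so for 7.88% of all genes in males and 10.2% in females taken singly. The difference was -0.48 in males and -0.47 in females. Over both sexes it was -0.47 ± 0.09, 0.72 of the wild-type signal, with an unadjusted limma p of 0.000189 and an adjusted p of 1.00. On the control diet it was 0.05 ± 0.15. Cep43, a centrosomal protein that anchors microtubules and primary cilia, also had no overlap in either sex, at -0.53 ± 0.15. Its signal was 4.34 to 5.02 in the 6 wild-type and 3.58 to 4.36 in the 6 knockout libraries.

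**Figure D1:**
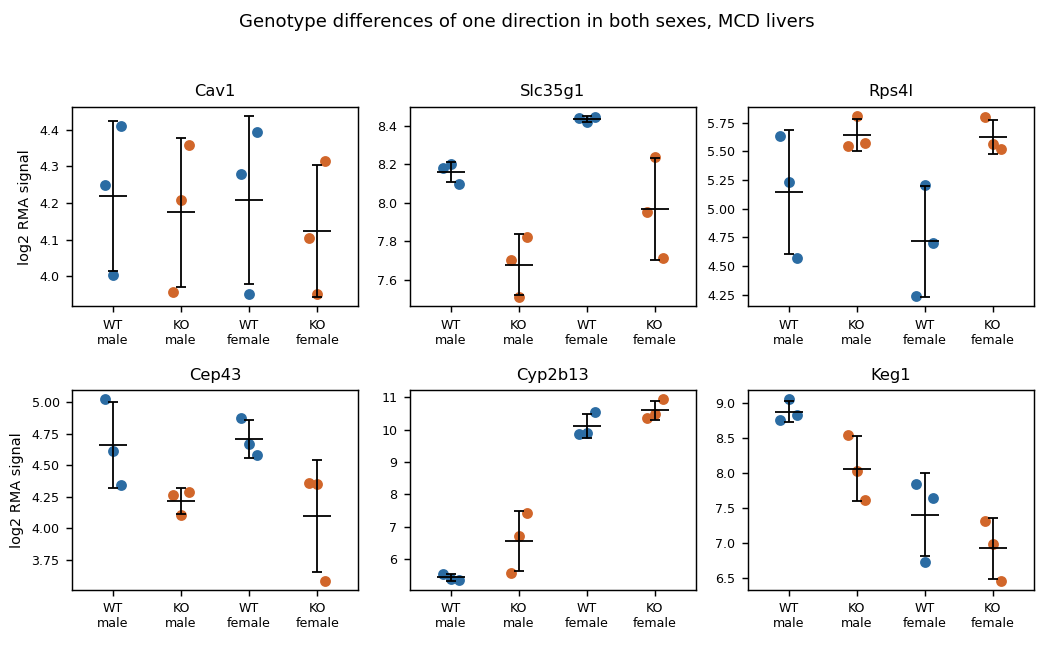
log2 RMA signal (y axis) of 6 genes on the 12 MCD arrays, in HepCAV1wt (WT, blue) and HepCAV1ko (KO, orange) males and females; points are arrays, and bars give the mean and SD of 3. The genotypes overlap for Cav1 in both sexes, and stand apart within each sex for Slc35g1 and Cep43.

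The 10 largest positive differences of one direction in both sexes lay between 1.48-fold and 1.81-fold, with unadjusted limma p-values of 0.00201 to 0.0448. The genes were taken by size among those above the median signal, so their size and p are a description. Foxq1, a forkhead transcription factor, read 6.02, 6.53 and 5.84 in HepCAV1wt males and 7.28, 7.36 and 7.36 in HepCAV1ko males. The 3 knockout males were above all wild-type males, whereas in females the ranges were 6.32 to 6.77 and 6.51 to 6.81. Its difference was 0.69 ± 0.18 over both sexes and 0.18 in females. In males alone its adjusted p was 0.317 (limma), and it was 0.0437 when HepCAV1wt male 2 was left out. Phlda1, a pleckstrin-homology domain protein of growth factor and stress responses, was 0.66 ± 0.18 higher. Rps4l, annotated as a transcribed pseudogene and related in sequence to Rps4x, so that its signal may be shared with that gene, read 4.23 to 5.63 in wild-type and 5.52 to 5.81 in knockout libraries (0.71 ± 0.19). Zbtb16, a glucocorticoid-induced zinc finger repressor, differed by 0.78 ± 0.35, and by 0.48 without HepCAV1wt female 1. Ass1, argininosuccinate synthase of the urea cycle, had the largest value, 0.85 ± 0.35, and it was 0.50 without HepCAV1wt male 1, which read 2.00 where the other 11 arrays read 3.72 to 5.48. These are low signals, the median over all genes being 3.83. The immunoglobulin segment Ighv2-6-8 (0.64), the Golgi membrane protein Tmem167 (0.56) and the Wnt receptor Fzd8 (0.56) completed the group with Cyp2b13 and Fbl, described below. Ighv2-6-8 was at 0.41 without HepCAV1ko male 2. Fzd8 was at 1.07 in females, without overlap, and at 0.06 in males.

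The 10 largest negative differences lay between 1.39-fold and 1.78-fold, with unadjusted p-values of 0.000189 to 0.0423. Csad, which makes hypotaurine from cysteine sulfinate, read 6.28 to 8.87 in wild-type and 6.17 to 7.01 in knockout livers (-0.81 ± 0.36), and its difference was -0.48 without HepCAV1wt female 2. Elovl3, an elongase of very long saturated and monounsaturated fatty acids, was lower in males, with 7.34, 6.10 and 7.18 in HepCAV1wt against 5.80, 5.18 and 5.94 in HepCAV1ko. In females, where its signal lay between 2.97 and 4.10, the genotypes overlapped. The study picked Csad and Elovl3 from these arrays, so they are no independent evidence. It reports that both were significantly changed by qPCR on this diet. Ccna2, the S-phase cyclin A2, differed by -0.50 ± 0.18, and Rab4a, a GTPase of early endosome recycling, by -0.48 ± 0.17. Slc22a28, an organic anion transporter family member (-0.54), and the protocadherins Pcdhgb1 (-0.83) and Pcdha3 (-0.47) were the others, beside Keg1. Pcdha3 was at -0.29 without HepCAV1ko male 2. The protocadherins belong to clusters of near-identical genes, so their signals may be shared with their neighbours.

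**Figure D2:**
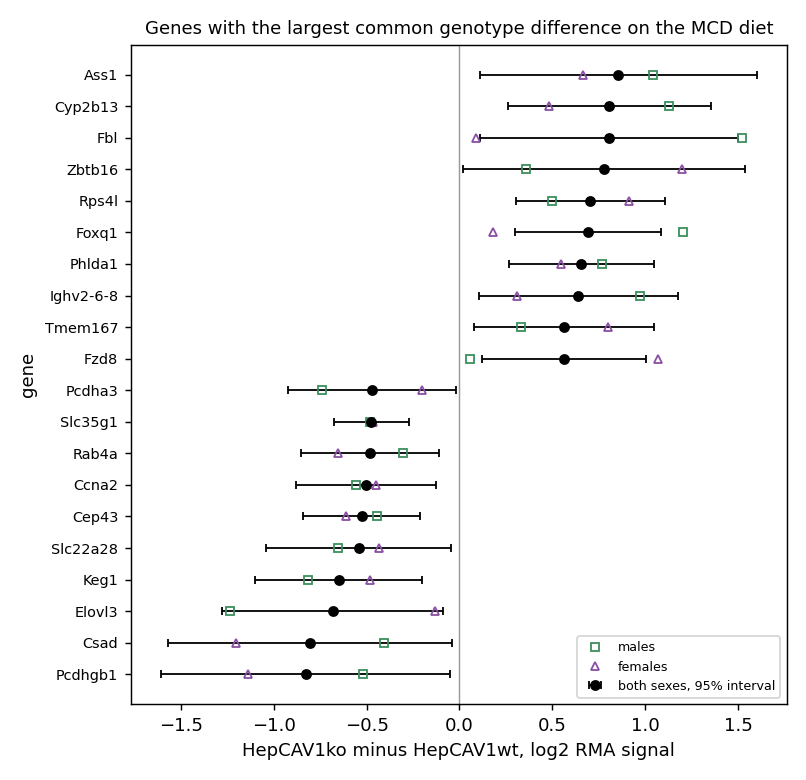
Difference between HepCAV1ko and HepCAV1wt MCD livers (x axis, log2 RMA signal) for the 20 genes with the largest differences of one direction in both sexes, ordered by size (y axis). Black points with bars give the estimate over both sexes with its 95% interval, squares the males and triangles the females. The estimates of Slc35g1 coincide in the sexes, while those of Fbl, Foxq1, Fzd8 and Elovl3 rest on one sex.

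On the control diet, where 1 gene (0.00405%) had an adjusted p under 0.05 and 5.13% an unadjusted p under 0.05, few of these genes had a like difference. Of the 10 higher genes, 4 had a positive difference there, 0 of them at an unadjusted p under 0.05, and 2 had a negative difference at that level, Foxq1 (-0.66 ± 0.25) and Fzd8 (-0.58 ± 0.20). Of the 10 lower genes, 5 had a negative difference on the control diet, 0 at an unadjusted p under 0.05. In the test of genotype by diet over 24 arrays, 0 genes had an adjusted p under 0.05 and 816 (3.3%) an unadjusted p under 0.05. Foxq1 (1.36 ± 0.35) and Fzd8 (1.14 ± 0.28) were among the latter, both with an adjusted p of 1.00. Differences of like direction on both diets were seen for St3gal6, a sialyltransferase that the study also names for this comparison, so it is no independent evidence. It was 0.52 ± 0.14 higher on the MCD diet and 0.28 ± 0.13 on the control diet. Its MCD values were 4.45, 3.95 and 4.22 in HepCAV1wt and 4.42, 4.91 and 4.67 in HepCAV1ko males. The female values were 5.34, 5.06 and 4.85 against 5.28, 5.74 and 5.95, so 1 array of each genotype overlapped in each sex. Cux2, a female-specific repressor of male-type liver genes, was 0.34 ± 0.11 higher on the MCD diet and 0.53 ± 0.16 on the control diet.

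Members of the sex-dependent gene lists lay on both sides. In growth hormone biology, pulses of the hormone in males drive male-type genes through STAT5b, and steady release in females drives the female type. Of 35 female-biased genes, 25 had a positive difference and 3 of them an unadjusted p under 0.05, with 0 lower (median 0.09). These 3 were 8.57% of the list, against 1.59% of all genes higher, and numbered 3 to 5 with one array left out (5 without HepCAV1wt male 3, HepCAV1wt female 3 or HepCAV1ko male 1). In males alone 19 of the 35 were above 0, with 3 higher and 3 lower at that level (17.1%, against 4.18% of all genes). In females 27 were above 0, with 4 higher and 0 lower (11.4%, against 3.99%). Cyp2b13, a female-type P450, read 5.56, 5.41 and 5.36 in HepCAV1wt males and 5.58, 6.72 and 7.42 in HepCAV1ko males. Its female values were 9.88, 9.90 and 10.55 against 10.37, 10.48 and 10.93, and the difference over both sexes was 0.81 ± 0.25. Cyp2a4, a steroid hydroxylase that shares most of its sequence with Cyp2a5, was 0.37 ± 0.15 higher. Of 29 male-biased genes, 20 were below 0 with 3 at an unadjusted p under 0.05 and 0 higher (median -0.08, against 0.00 over all genes). These 3 were 10.3% of the list, against 1.63% of all genes lower. They numbered 1 without HepCAV1wt male 1, HepCAV1ko male 1 or HepCAV1ko male 2, and 5 without HepCAV1wt female 3. The 3 were Elovl3, Serpina4-ps1 (-0.57 ± 0.27, and -0.31 without HepCAV1wt male 1) and Keg1, an acyltransferase-like gene of kidney and liver, which read 8.76, 9.06 and 8.83 in HepCAV1wt and 8.55, 8.03 and 7.62 in HepCAV1ko males. In males alone 21 of the 29 male-biased genes were below 0, with 6 lower and 0 higher at that level (20.7%, against 4.18% of all genes). In females 18 were below 0, with 1 lower and 1 higher (6.9%, against 3.99%).

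In the lists of lipid metabolism, few members had an unadjusted p under 0.05. Among 22 genes of the lipid droplet coat and lipolysis, 12 were above 0 and 1 had an unadjusted p under 0.05 (4.55%, against 3.22% of all genes). This was Rab18, a droplet GTPase, which read 7.14 to 7.44 in the 6 wild-type and 6.94 to 7.13 in the 6 knockout libraries without overlap, a difference of -0.19 ± 0.08; 27 genes in all (0.109%) had no overlap between 6 and 6 arrays. Of 15 elongases and desaturases, Elovl3 was lower and Fads6 higher (0.19 ± 0.09) at that level, and the median was 0.00. Together they were 13.3% of the list, against 3.22% of all genes. Of 19 cholesterol synthesis genes, 17 were below 0 over both sexes (median -0.12), 18 in males and 12 in females, with 0 at an unadjusted p under 0.05 in either sex or in both together. Nsdhl, a sterol dehydrogenase, had the smallest p of these at -0.30 ± 0.24. For 22 genes of mitochondrial fatty acid oxidation the median over both sexes was -0.00. For 31 genes of methionine, choline and one-carbon metabolism, the pathway that the diet starves, it was 0.01. Neither list had a gene at an unadjusted p under 0.05 over both sexes. In males 5 of the 22 and 6 of the 31 were above 0, and in females 17 and 24. The female minus male difference was above 0 for 20 of the 22, with 0 at an unadjusted p under 0.05. For the 31 it was above 0 for 25, with 3 higher and 1 lower at that level (12.9%, against 4.83% of all genes). Of 26 acute phase genes, 23 were above 0 over both sexes with a median of 0.08 and 0 at an unadjusted p under 0.05. Orm1, Orm2 and Orm3, which encode the plasma orosomucoids and are near-identical to each other, had differences of 0.21, 0.59 and 0.54. These were 0.13, 0.28 and 0.28 without HepCAV1wt female 2.

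Of 34 matrix genes, 16 were above 0 over both sexes and 1 had an unadjusted p under 0.05, higher (2.94%, against 1.59% of all genes). This was Ltbp2, a latent TGF-beta binding protein of elastic fibres, with 3.67 to 4.17 in wild-type and 4.21 to 4.57 in knockout libraries. Its groups did not overlap, and its difference of 0.38 ± 0.10 was present on the control diet too (0.24 ± 0.09). Of 8 bile duct cell markers, 3 were above 0 and 5 below over both sexes, with a median of -0.02. Of these 8, 1 was higher at an unadjusted p under 0.05 (12.5%, against 1.59% of all genes). This was Krt7, a keratin, at 0.41 ± 0.15, while Sox9, the transcription factor of the same cells, was at 0.22 ± 0.13. Ccn2, a matricellular growth factor, was at -0.40 with an unadjusted limma p of 0.0551. Of 14 stellate cell and myofibroblast markers and of 10 sinusoidal endothelial markers, 0 had an unadjusted p under 0.05 over both sexes. The endothelial mean was 7.03 in HepCAV1ko male 2 and 7.54 to 7.94 on the other arrays. In whole liver, fewer cells of a type and less RNA per cell cannot be told apart.

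MicroRNA genes were read through their precursors, mostly at low signal, 97 of 543 being above the median of all genes. Of the 543, 4 were higher and 26 lower in the knockouts at an unadjusted p under 0.05, 5.52% against 3.22% of all genes, and 241 were above 0 with a median of -0.02. Without one array this number ranged from 18 (without HepCAV1ko female 2) to 48 (without HepCAV1wt male 3). MicroRNAs silence messages that pair with their seed, bases 2 to 8. The mature sequences that RefSeq lists for 3 of the 4 with the smallest p, and for Mir505, named below for its difference between the sexes, are shown because the seed sets the targets. They are from GRCm38.p6, with the seed in capitals.
mmu-miR-378d (chr10:126710355-126710376, minus strand): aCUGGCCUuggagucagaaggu
mmu-miR-1933-3p (chr11:21344600-21344621, minus strand): cCAGGACCaucagugugacuau
mmu-miR-1933-5p (chr11:21344640-21344663, minus strand): aGUCAUGGuguucggucuuaguuu
mmu-miR-759 (chr14:79738460-79738481, plus strand): gCAGAGUGcaaacaauuuugac
mmu-miR-505-3p (chrX:60394416-60394437, minus strand): cGUCAACAcuugcugguuuucu
mmu-miR-505-5p (chrX:60394451-60394473, minus strand): gGGAGCCAggaaguauugauguu
The 6 arms have 6 different seeds. Mir378d read 3.79, 4.08 and 3.59 in HepCAV1wt and 3.41, 3.55 and 3.56 in HepCAV1ko males. In females it read 3.63, 3.50 and 3.31 against 3.14, 3.10 and 3.22, so the genotypes were apart in both sexes (-0.32 ± 0.09). Mir1933 differed in females, with 5.07, 5.27 and 4.09 against 3.80, 3.45 and 3.17, and overlapped in males. Mir759 was at -0.34 in males and -0.17 in females, with all 12 signals between 1.82 and 2.39, the bottom of the scale. Mir30d differed by -0.40 ± 0.13.

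The differences of males and of females did not run together. Across genes the correlation of the male with the female difference was Pearson -0.143 and Spearman -0.104, and over the genes above the median signal -0.22 and -0.176. Genes are not independent replicates, and both values come from 6 arrays per sex processed together. The sign was the same in both sexes for 11528 genes (46.7%). In males 1033 genes (4.18%) and in females 985 (3.99%) had an unadjusted p under 0.05, 28 in both with the same sign (0.113%) and 56 in both with opposite signs (0.227%). Higher and lower genes made up 2.13% and 2.05% in males, and 1.92% and 2.06% in females. The test of genotype by sex called 0 genes (0%) at an adjusted p under 0.05 and 1193 (4.83%) at an unadjusted p under 0.05, 2.36% with a more positive and 2.47% with a more negative difference in females. Its smallest adjusted p, 0.0963, belonged to Gm30340, a predicted gene named after its values were seen. Gm30340 read 4.29, 4.12 and 4.19 in HepCAV1wt and 3.28, 4.01 and 3.50 in HepCAV1ko males. In females it read 3.26, 2.96 and 3.00 against 4.48, 4.36 and 4.16, the reverse order without overlap, and its adjusted p was 0.0069 when HepCAV1ko male 2 was left out.

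**Figure D3:**
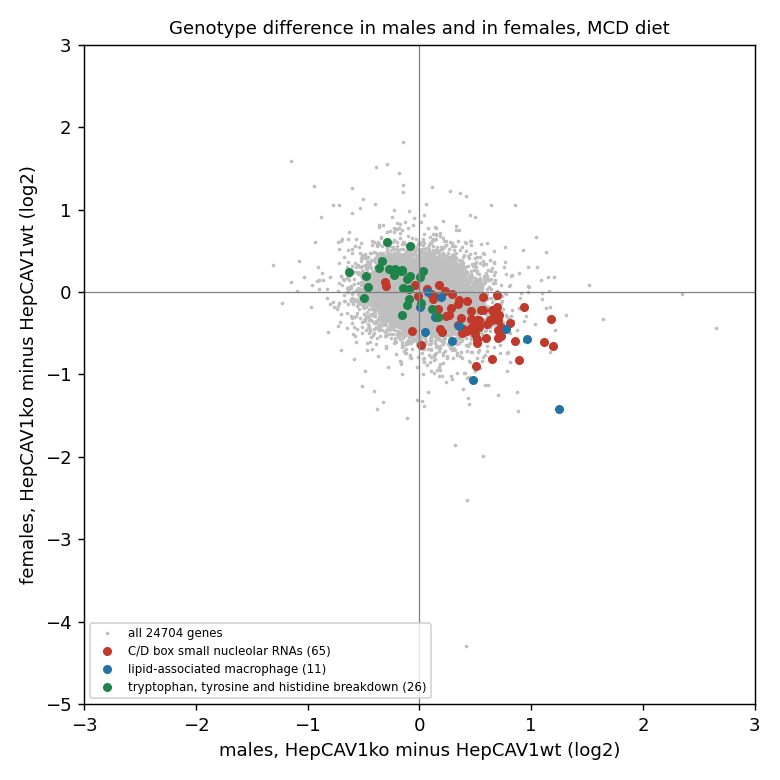
Difference between HepCAV1ko and HepCAV1wt MCD livers in males (x axis) and in females (y axis), both in log2 RMA signal, for all 24704 genes (grey). Members of 3 lists are coloured; 60 of 65 C/D box small nucleolar RNAs lie right of 0 and 6 of 65 above it.

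Differences of opposite sign in the sexes were seen in the C/D box small nucleolar RNAs, which guide the methylation of ribosomal RNA and are cut from introns of host genes. Their mean signal over 65 members was 6.54, 6.98 and 6.89 in HepCAV1wt males and 7.09, 7.58 and 7.15 in HepCAV1ko males, with no overlap. In females it was 7.14, 7.07 and 6.95 against 6.55, 6.66 and 6.97, where 1 array of each genotype overlapped. In males 60 of 65 were above 0 and 28 had an unadjusted p under 0.05, all higher (43.1%, against 2.13% of all genes higher, median 0.51). In females 6 of 65 were above 0 and 14 were lower at that level with 0 higher (21.5%, against 2.06%, median -0.34). Over both sexes 0 of 65 were so, and the median was 0.07. In the test of genotype by sex, 40 of 65 had an unadjusted p under 0.05, all lower in females relative to males (61.5%, against 2.47%), and the smallest adjusted p was 0.93. Members share libraries and host genes, so they are not 65 separate observations. With one array left out, the 40 became 29 (without HepCAV1ko male 2) to 45, the 28 of the males 15 (also without HepCAV1ko male 2) to 33, and the 14 of the females 5 (without HepCAV1ko female 1) to 29 (without HepCAV1ko female 3). The male median was lowest at 0.34, without HepCAV1wt male 1, and the female median was nearest to 0 at -0.22, without HepCAV1ko female 1. Snord55 read 8.39, 9.30 and 9.46 in HepCAV1wt males and 10.05, 10.68 and 9.93 in HepCAV1ko males, a difference of 1.17, and was at -0.33 in females. Snord15b was at 0.70 in males and -0.18 in females.

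Fbl, fibrillarin, is the methyltransferase that these guides direct, and is named by the study for this diet. It read 4.47, 5.71 and 3.72 in HepCAV1wt males and 6.15, 6.35 and 5.97 in HepCAV1ko males, without overlap (1.52, unadjusted limma p 0.00164). Over both sexes its difference was 0.81, and 0.52 without HepCAV1wt male 3. In females the values were 5.68, 5.76 and 6.36 against 6.46, 5.93 and 5.68, a difference of 0.09. The 34 H/ACA box RNAs, which guide pseudouridylation by another enzyme, had medians of 0.12 in males and -0.08 in females, and 3 of 34 had an unadjusted p under 0.05 in the test of genotype by sex, all lower in females (8.82%, against 2.47% of all genes). These 3 became 0 without any one of 4 arrays and 5 without HepCAV1ko male 1. Their mean in HepCAV1ko male 2 was 7.52, with 6.28 to 6.76 on the other 11 arrays. Without HepCAV1ko male 2 the direction turned, with a male median of -0.13 in place of 0.12 and a median difference between the sexes of 0.13 in place of -0.13. The part of this array in the C/D box result is given by the counts without it above. The 65 cytosolic ribosomal protein genes had a median of 0.04 in males and -0.04 in females. Their signals were low, with 34 of 65 above the median of all genes and list means of 4.445 to 4.704. This limits what their medians show.

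**Figure D4:**
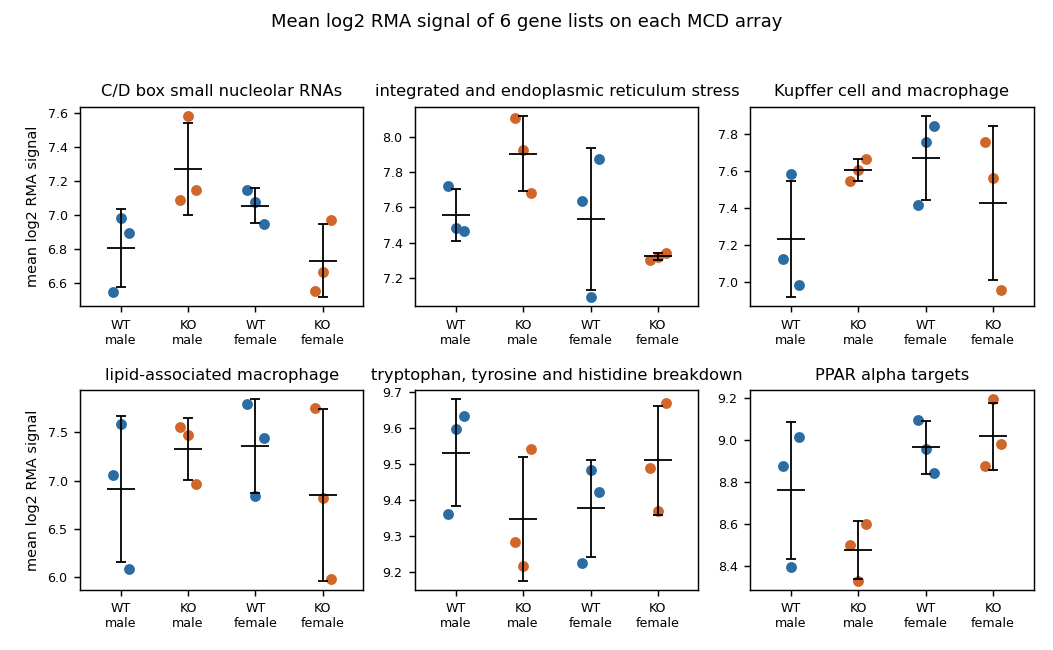
Mean log2 RMA signal (y axis) of 6 gene lists on each MCD array, in HepCAV1wt (WT, blue) and HepCAV1ko (KO, orange) males and females; bars give the mean and SD of 3 arrays. Knockout males lie above wild-type males for the C/D box RNAs (7.09 to 7.58 against 6.54 to 6.98), and the female order is the reverse with 1 array of overlap.

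Stress genes lay the same way. The integrated stress response slows protein synthesis and turns on genes of amino acid supply and protein folding. The list covered both this response and endoplasmic reticulum stress, with genes such as Xbp1 and Pdia6. Of its 28 members, 27 were above 0 in males, 4 of them at an unadjusted p under 0.05 (14.3%, against 2.13% of all genes higher, median 0.23). In females 11 were above 0 and 3 were lower at that level (10.7%, against 2.06%, median -0.19), and in the test of genotype by sex 8 of 28 had an unadjusted p under 0.05, all lower in females (28.6%, against 2.47%). With one array left out these 8 became 3 (without HepCAV1wt female 3) to 11, and the 4 of the males 2 (without HepCAV1ko male 1) to 7 (without HepCAV1wt male 1). Without HepCAV1wt female 3 the 3 of the females became 0 and their median -0.02, while without HepCAV1wt female 2 they became 8. The female median was -0.06 without HepCAV1ko female 2. The list mean was 7.30, 7.32 and 7.34 in HepCAV1ko females, and 7.64, 7.09 and 7.87 in the wild type around them. Aldh18a1, which starts proline synthesis, read 3.85, 4.01 and 3.61 in HepCAV1wt and 5.15, 4.43 and 4.52 in HepCAV1ko males. Its female values were 4.32, 3.88 and 4.23 against 3.95, 3.74 and 3.38, and the difference between the sexes was -1.33 ± 0.29 (adjusted p 0.93 by limma). Egr1, an immediate early transcription factor, was at 1.31 in males, without overlap, and at -0.29 in females. Lgals4, a galectin of epithelia, was at 0.79 and -0.73. The study names Aldh18a1, Egr1 and Lgals4 from these arrays, so they are no independent evidence.

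Macrophage markers lay in that order too, with 2 of 11 and 1 of 11 at an unadjusted p under 0.05 in the test of genotype by sex, all lower in females (18.2% and 9.09%, against 2.47% of all genes). With one array left out the 2 became 1 (as without HepCAV1wt male 1) to 8 (without HepCAV1wt male 2). The 1 became 0 (as without HepCAV1wt male 3) to 6 (without HepCAV1ko female 1). Of 11 Kupffer cell and macrophage markers, 11 were above 0 in males (median 0.30) and 2 in females (median -0.19). Without HepCAV1wt male 3 or HepCAV1ko male 3 the male median was 0.20, and without HepCAV1ko female 3 the female median was -0.01. Clec4f, the lectin specific to Kupffer cells, read 8.09, 8.06 and 8.24 in HepCAV1wt and 8.51, 8.70 and 8.62 in HepCAV1ko males, and 8.21 to 8.32 against 8.16 to 8.44 in females. Of 11 lipid-associated macrophage markers, those of cells that gather around fat-laden hepatocytes, 11 were above 0 in males (median 0.30) and 1 in females (median -0.45). Both of the latter medians rested on single arrays: the male median was -0.03 without HepCAV1wt male 3, whose list mean was 6.09, and the female median was 0.04 without HepCAV1ko female 3, whose mean was 5.98. The other 10 arrays lay between 6.82 and 7.79. Lgals3, which encodes galectin-3, read 9.11, 8.42 and 8.87 in HepCAV1wt and 8.21, 8.13 and 6.88 in HepCAV1ko females. Marco, a scavenger receptor of macrophages, had one of the largest negative differences between the sexes, -1.90 ± 0.84. It read 5.33, 6.63 and 4.92 against 6.63, 6.95 and 6.81 in males. Stellate cell and matrix genes lay in this order as well. Of 14 stellate cell and myofibroblast markers, 11 were above 0 in males (median 0.14) and 12 below 0 in females (median -0.15), and 2 had an unadjusted p under 0.05 for genotype by sex, lower in females (14.3%, against 2.47%). Of 34 matrix genes, 23 were above 0 in males (median 0.10) and 28 below 0 in females (median -0.15), and 4 were lower at that level for genotype by sex (11.8%). With one array left out the 2 became 0 to 3, and the 4 became 1 to 8 (without HepCAV1ko female 1). The female median of the matrix genes was 0.02 without HepCAV1ko female 3. The male medians were 0.05 and 0.04 without HepCAV1wt male 3, and the female stellate median was -0.05 without HepCAV1wt female 1. The part of macrophage or stellate cell content in the other lists was not tested.

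Enzymes of amino acid breakdown lay the other way. Of 26 genes of tryptophan, tyrosine and histidine breakdown, 21 were below 0 in males (median -0.15) and 19 above 0 in females (median 0.19), and 6 were higher in females relative to males at an unadjusted p under 0.05, with 0 lower (23.1%, against 2.36% of all genes). These 6 became 2 without HepCAV1ko male 2 and up to 8 without another array, and the female median was 0.07 without HepCAV1wt female 1. Of 25 genes of branched-chain amino acid degradation, 22 were below 0 in males and 21 above 0 in females, and 3 were higher in females relative to males at that level, 12% against 2.36%. These 3 became 2 to 7 (without HepCAV1wt female 3). Kynu, kynureninase of the tryptophan route to NAD, read 8.96, 8.84 and 8.70 in HepCAV1wt and 8.51, 8.06 and 8.55 in HepCAV1ko males, and was at 0.05 in females. Acadsb, an acyl-CoA dehydrogenase of isoleucine breakdown, read 8.23, 8.13 and 8.09 against 7.81, 7.67 and 7.91 in males, and 7.54, 7.91 and 7.77 against 8.09, 7.92 and 8.12 in females. Acadsb was without overlap in both sexes and in opposite directions, a difference between the sexes of 0.66 ± 0.18. In females the genotypes were apart only by 7.91 against 7.92. Aldh6a1 of valine breakdown was at -0.27 and 0.22. Got1, the cytosolic aspartate aminotransferase, was at -0.40 in males and read 9.17, 8.79 and 9.80 against 10.24, 10.17 and 10.56 in females. The study names Acadsb, Aldh6a1 and Got1 from arrays of this series, so they are no independent evidence. By qPCR on this diet it reports a trend for Got1.

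Genes of the PPAR alpha programme and of arachidonic acid metabolism were mostly below 0 in males. In females their medians were 0.04 and 0.05, with 15 of 25 and 27 of 36 members above 0, against 52.0% of all genes. Of 25 PPAR alpha targets, 21 were below 0 in males, with 3 at an unadjusted p under 0.05 (12%, against 2.05% of all genes lower, median -0.27), and the female median was 0.04. Ehhadh, a peroxisomal oxidation enzyme, read 9.90, 9.53 and 10.05 in HepCAV1wt and 9.32, 9.16 and 9.46 in HepCAV1ko males, and was at -0.07 in females. Without HepCAV1wt male 2, whose list mean was 8.39 against 8.87 and 9.01 in the other wild-type males, 10 targets were at that level, and 9 without HepCAV1ko male 3. The lowest number with one array left out was 2, as without HepCAV1wt male 1. The male median was -0.13 without HepCAV1wt male 3 and -0.17 without HepCAV1wt male 1. Of 36 arachidonic acid genes, 10 were lower and 1 higher in males at that level, against 2.05% and 2.13% of all genes (median -0.16). These 11 were 30.6% of the list and became 3 without HepCAV1ko male 2, 4 without HepCAV1wt male 1 and 5 without HepCAV1wt male 3. For genotype by sex, 6 were higher in females relative to males (16.7%, against 2.36%), and these became 2 (without HepCAV1wt female 1, among others) to 9 (without HepCAV1wt male 2). Cyp2c38 was at -1.07 in males and 0.38 in females, Cyp2c40 at -1.09 and 0.01, and Cyp2c68 at -0.44 and -0.15. Cyp2c38 and Cyp2c40 are named by the study from these arrays, so they are no independent evidence. Members of the Cyp2c family are alike in sequence to differing degrees, so signals may be shared between the closest of them. Vnn1, a pantetheinase that PPAR alpha induces, read 8.11, 7.67 and 8.34 against 7.26, 6.86 and 7.36 in males. In females it read 8.84, 8.26 and 7.53 against 9.36, 9.22 and 8.77, a difference between the sexes of 1.78 ± 0.40 (adjusted p 0.93).

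**Figure D5:**
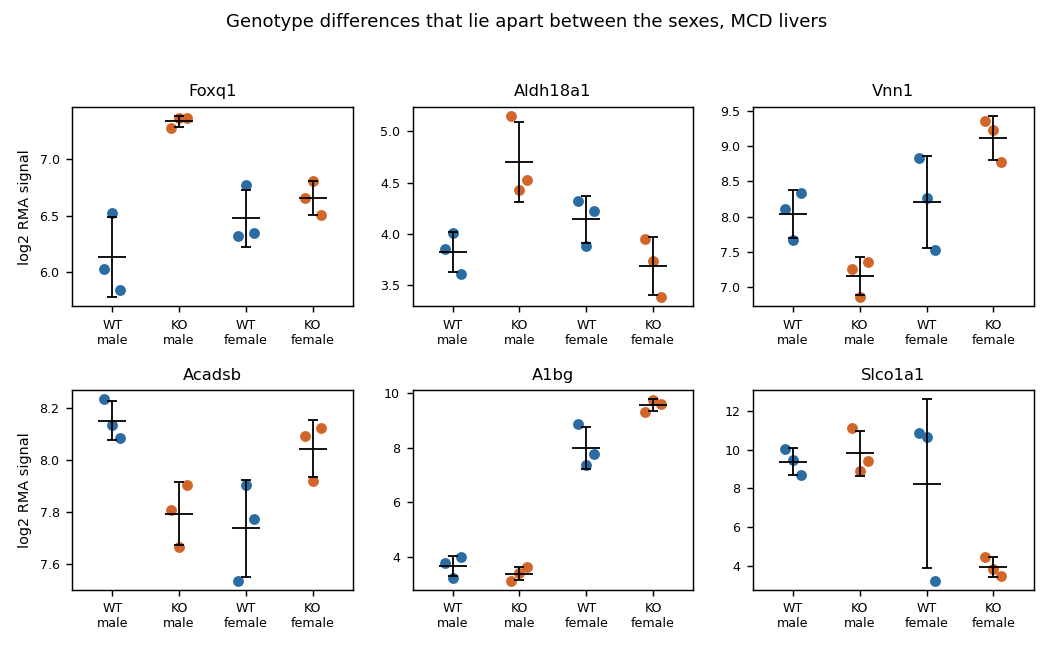
log2 RMA signal (y axis) of 6 genes on the 12 MCD arrays, in HepCAV1wt (WT, blue) and HepCAV1ko (KO, orange) males and females; points are arrays, and bars give the mean and SD of 3. The order of the genotypes is reversed between the sexes for Aldh18a1, Vnn1 and Acadsb; Slco1a1 is split within the wild-type females (10.84 and 10.66 against 3.25).

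The remaining genes with the largest differences between the sexes each had a pattern of their own. Of those below, A1bg, Slco1a1, Gm6614, Cyp3a16 and Ugt1a7c are named by the study from the female arrays, so they are no independent evidence. A1bg, a plasma glycoprotein of the female liver, read 8.87, 7.37 and 7.78 in HepCAV1wt and 9.32, 9.75 and 9.60 in HepCAV1ko females, a difference of 1.56, and 3.12 to 3.98 in males of both genotypes. Its control-diet difference was 0.88 ± 0.24. In females its adjusted p was 1.00, and 0.048 without HepCAV1wt female 1. Slco1a1, a male-type organic anion transporter, read 10.84, 10.66 and 3.25 in HepCAV1wt females and 4.48, 3.86 and 3.51 in HepCAV1ko females, and 8.67 to 11.13 in males. The female difference of -4.30 had an unadjusted limma p of 0.0119. Without HepCAV1wt female 3 it was -6.80 with an adjusted p of 0.000875, and the call thus rested on the removal of 1 array. The predicted gene Gm6614 had the same split, with 5.89, 5.14 and 1.85 in HepCAV1wt females and 1.62 to 3.03 on the other arrays. Cyp3a16, a P450 of the newborn and female liver, read 2.39, 4.40 and 5.29 in HepCAV1ko females and 1.79 to 2.82 elsewhere, with an adjusted p of 0.0276 in females without HepCAV1ko female 1. Ugt1a7c, a glucuronosyltransferase that shares exons with other Ugt1a genes, read 5.50, 5.16 and 5.19 in HepCAV1wt and 4.87, 2.49 and 2.52 in HepCAV1ko females. Acss3, a mitochondrial propionyl-CoA synthetase, and Pdzrn3, a ubiquitin ligase, were at 1.06 and 1.30 in females and at -0.78 and -0.15 in males. Mir505, Neat1, a long RNA that scaffolds nuclear paraspeckles, and Erdr1 were lower in knockout females (-1.85, -1.25 and -1.44) and at 0.32, 0.70 and 0.88 in males. Mir505 read 6.57, 6.91 and 5.34 in HepCAV1wt and 5.03, 3.36 and 4.88 in HepCAV1ko females. Dpys of pyrimidine breakdown, which the study names, read 7.25, 7.96 and 8.55 against 6.72, 7.05 and 7.28 in males, where 1 array of each genotype overlapped, and was at 0.04 in females. The study reports a trend for Dpys by qPCR on this diet.

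The promoters of the gene with the largest difference between the sexes and of the gene with the smallest p over both sexes are given for comparison, from RefSeq (GRCm38.p6), 250 bases before to 50 after the start. Matches on either strand are in capitals for 4 motifs. The TATA motif was searched as TATAAA. The GC box was searched with the letters GGGCGG. The box bound by NF-Y was searched as CCAAT. The paired half-sites bound by STAT5 were searched as TTCNNNGAA, and no motif overlapped another in these promoters.
Slco1a1 (chr6:141946913-141947212, minus strand): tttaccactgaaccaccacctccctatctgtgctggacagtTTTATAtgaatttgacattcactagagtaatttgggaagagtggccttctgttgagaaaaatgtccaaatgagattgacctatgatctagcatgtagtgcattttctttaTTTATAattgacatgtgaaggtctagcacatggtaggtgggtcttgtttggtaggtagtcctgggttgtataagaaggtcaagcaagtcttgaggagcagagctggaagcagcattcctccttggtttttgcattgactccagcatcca
Slc35g1 (chr19:38395730-38396029, plus strand): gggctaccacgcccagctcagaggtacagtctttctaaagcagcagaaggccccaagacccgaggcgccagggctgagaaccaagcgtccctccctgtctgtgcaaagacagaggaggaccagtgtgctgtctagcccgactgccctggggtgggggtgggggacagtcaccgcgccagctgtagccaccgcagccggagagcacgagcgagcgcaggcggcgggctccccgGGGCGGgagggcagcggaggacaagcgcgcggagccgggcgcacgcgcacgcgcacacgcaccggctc
Slco1a1 held 2 TATA motif matches and no other, and Slc35g1 held 1 GC box match. Of 27025 promoters of this length, 14.2% held the TATA motif, 35.9% the GC box, 37.9% the NF-Y box and 8.47% the STAT5 half-sites. Of the 20 genes of one direction in both sexes, 8 had a promoter in the table, and 1 of these held the half-sites (Keg1) and 4 the GC box. Of the 12 with the largest differences between the sexes, 7 had one, and 1 held the half-sites (A1bg) and 2 the TATA motif. A match of letters is a description and does not show that a factor binds.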

How the data were processed

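Total RNA of whole liver was hybridised to Affymetrix MoGene 2.0 ST arrays, 1 array per sample. The values deposited by the authors are log2 RMA signals per gene, background-corrected and quantile-normalized over all 24 arrays, which share one minimum and median. The chip definition and software version are not given in the sources used here. Of 25428 features, 24705 carried a symbol, and 24704 genes were tested after keeping the brighter of 2 features of 1 gene. Signals carry no counts, so the number of arrays sets the precision.

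limma 3.58.1 (R 4.3.3) was fitted to the 12 MCD arrays with terms for sex and genotype (9 residual degrees of freedom), to 4 group means for each sex and for genotype by sex (8), and to 8 group means over 24 arrays for genotype by diet (16). Adjusted p-values used the Benjamini-Hochberg method across the 24704 genes, with a threshold of 0.05. An unadjusted threshold of 0.05, as the study used, is also given. Errors beside differences are SE. The main fit was tested on simulated data. No low-signal filter was used. Genes were named by a rule: Cav1; the 10 highest and 10 lowest of one sign in both sexes, and 6 and 6 by difference between the sexes, each above the median signal, at an unadjusted p under 0.05 and without predicted or clone names; up to 4 per described list with the smallest p over both sexes; and those the study names. The members, the 64 lists and the tests were chosen with earlier results of these data known. Alternatives were other sets of arrays, variance models, array weights, a filter on dim genes, every feature by itself, renormalization, replicate blocks and each array left out. The closing section gives those that altered a count by over 1.5 times, and the replicate blocks. No batch is given in the sources used here.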

Additional observations from a re-analysis of the deposited data

Results flagged for a closer look

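Among 138 groups of 6 arrays, 43 genes and 26 lists in each genotype, 8 held an array that stood apart, by the gap to its neighbour relative to the group's range (Dixon's criterion). At the criterion's nominal rate of 1 in 20 groups, chance would flag 6.9 here. This number is a rough guide, as the groups share arrays and each mixes the sexes. A sex difference widens the range of a group and can hide an array that stands apart. Among genes, Cep43 read 3.58 in HepCAV1ko female 3 (nearest array 4.10), Slco1a1 read 3.25 in HepCAV1wt female 3 (nearest 8.67), and Dmbt1 read 4.58 in the same array (nearest 2.67). Among list means, the PPAR alpha targets were at 8.39 in HepCAV1wt male 2 (nearest 8.84) and the Kupffer cell markers at 6.96 in HepCAV1ko female 3. HepCAV1ko male 2 stood apart for 3 lists: the sinusoidal endothelial markers at 7.03, the H/ACA box RNAs at 7.52 and the cytosolic ribosomal proteins at 4.70.

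Of the 43 genes, 1 differed in opposite directions without overlap in either sex. This was Acadsb, with a female minus male difference of 0.663 (limma adjusted p 0.93). The share over all genes was not computed.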

How the results depend on the processing

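With genes above the median signal alone, fewer genes being tested, the counts at an unadjusted p under 0.05 were 276 (both sexes), 397 (males), 458 (females), 583 (genotype by sex) and 304 (genotype by diet). Array weights gave 1484 in females. Without one array, the count at an adjusted p under 0.05 was 0 to 1 in males, 0 to 4 in females and 0 to 3 for genotype by sex, and stayed at 0 for both sexes. The unadjusted count was 677 to 1130 for both sexes and 624 (without HepCAV1wt female 1) to 1286 (without HepCAV1wt female 3) in females. In males it was 830 (without HepCAV1ko male 2) to 1465 (without HepCAV1wt male 2), for genotype by sex 892 (without HepCAV1wt female 1) to 1603 (without HepCAV1wt male 1), and for genotype by diet 737 to 977. Every feature by itself, all 24 arrays, no sex term, 4 group means, other variance models and renormalization, each where run, gave 0 genes at an adjusted p under 0.05 and unadjusted counts within 1.5 times those reported.

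Same-numbered arrays deviated together with correlations of 0.037 to 0.25, 2 of 6 over 0.1. Of the 12 arrays, 11 correlated best with their own number among the arrays of the other genotype in their sex. Same-numbered arrays thus shared some deviation, which the main fits do not take into account. Its source was not tested, and the main fits do not pair the samples because the labels give no pairing. With the replicate block within each sex, the unadjusted counts were 933 for both sexes, 922 in males and 1572 in females. The main fits gave 795, 1033 and 985. With this block, genotype by sex had 1 gene at an adjusted p under 0.05. That was 5930430L01Rik, named after its values were seen (0.039). A block shared by the sexes, chosen after seeing the data, also gave 1 (0.00754).

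Signs turned for uncalled genes without one array. The St3gal6 female minus male difference was -0.0363 to 0.297. Differences over both sexes were -0.27 to 0.0586 for Stab2, -0.18 to 0.0046 for Clec4g, -0.20 to 0.0304 for Adgre1, -0.0128 to 0.16 for Vsig4, -0.0272 to 0.13 for Timd4, -0.36 to 0.0145 for Cd63, -0.32 to 0.0202 for Trem2, -0.30 to 0.0071 for Des and -0.12 to 0.24 for Acta2. The cause was not tested. Member counts of lists without one array were also chosen after seeing the data.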
